A study of Homo sapiens with 3 samples.

Results

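The ATP-binding cassette (ABC) transporter genes were examined in LNCaP cells, an established androgen-responsive line of human prostate cancer. The members were the probe sets whose only annotated gene symbol was ABC, a subfamily letter from A to G and a number. This rule gave 125 of the 49388 probe sets on the array and 42 of the 18131 genes that had a probe set of their own. There were 12 genes of subfamily ABCA, 7 of ABCB, 11 of ABCC, 3 of ABCD, 1 of ABCE, 3 of ABCF and 5 of ABCG. Cells in serum-containing medium free of phenol red were lipid-transfected at 75 nM with siRNA 1 or siRNA 2, both directed at HOXD-AS1, a long non-coding RNA of the HOXD cluster, or with a control siRNA, and were harvested after 48 h. Each of the 3 groups was a single Affymetrix array, so no difference below has a replicate check, no test was possible, and 1 array per group sets the precision of each value. The source labels call the cells LNCaP-Bic for siRNA 1, LNCaP-AI for siRNA 2 and LNCaP for the control, while the cell line label is LNCaP throughout; a difference between cells of these names and a difference between siRNAs cannot be told apart. The target positions of the siRNAs, 588 and 1290, are labelled as lying in the coding sequence of WDR5, although the siRNA label names HOXD-AS1, and this mismatch could not be settled from the labels. HOXD-AS1 is now named HAGLR; 0 probe sets carried that symbol, and the targeted RNA was not analysed here. The siRNA strands are shown as the labels give them, because they define the 3 groups.
HOXD-AS1 siRNA 1: gaaagaaggaccaaaguaauu
HOXD-AS1 siRNA 2: gcccuuucugaccugcuuauu
control siRNA: uucuccgaacgugucacgutt

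ABC proteins bind and hydrolyse ATP through a conserved nucleotide-binding domain, and in most of them this drives a substrate across a membrane. ABCA and ABCG proteins mainly move lipids and sterols, ABCB proteins include the multidrug pump P-glycoprotein and carriers of mitochondria and lysosomes, ABCC proteins export organic anions and conjugates or serve as channel subunits, and ABCD proteins serve peroxisomes and lysosomes. ABCE and ABCF proteins have no membrane domain and act in translation. In prostate cells the ABCC4 gene is known as an androgen-responsive member of the family.

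Of the ABC genes, 21 lay above the median of all table values on every array and 21 lay below it on every array. That median, an intensity of 26.0 over the 3 arrays, served as the floor, and lower values were raised to it before a difference was taken. The probe set of highest mean on the log2 scale stood for each gene, which was called measured when that probe set exceeded the floor on at least 1 array. By this measure 21 of the 42 ABC genes (50.0%) were measured, against 11286 of all 18131 genes (62.2%), and all 21 were above the floor on all 3 arrays. The other 21 were below it on all 3. None of the 42 genes therefore crossed the floor between the siRNA libraries and the control. Of the 125 probe sets, 41 were above the floor on all 3 arrays, 8 on 1 or 2 and 76 on none. The lowest measured value of a representative probe set was the 26.4 of ABCB8 with siRNA 1, and the highest value among the representative probe sets of the genes not measured was the 22.1 of ABCA12, also with siRNA 1. Intensities of different probe sets are not compared with one another.

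The measured genes were 5 of 12 in ABCA (ABCA2, ABCA3, ABCA5, ABCA7 and ABCA10), 4 of 7 in ABCB (ABCB1, ABCB8, ABCB9 and ABCB10), 5 of 11 in ABCC (ABCC1, ABCC4, ABCC5, ABCC8 and ABCC10), 2 of 3 in ABCD (ABCD3 and ABCD4), the single ABCE1, all 3 of ABCF and 1 of 5 in ABCG (ABCG1). The genes below the floor included canalicular and intestinal exporters, namely the bile salt pump gene ABCB11, the phospholipid flippase gene ABCB4, the conjugate exporter gene ABCC2 and the sterol exporter genes ABCG5 and ABCG8. ABCA1, which encodes the lipid exporter that loads apolipoprotein A-I, read 7.8 with siRNA 1, 5.4 with siRNA 2 and 5.4 in the control. ABCG2, which encodes the breast cancer resistance protein, read 15.4 with siRNA 1, 15.4 with siRNA 2 and 14.2 in the control. Its second probe set read 23.5, 8.67 and 10.2 in the same order, again below the floor on each array, so no fold was taken. Of the 21 genes below the floor, 13 stayed under an intensity of 10 on every array.

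**Figure D1:**
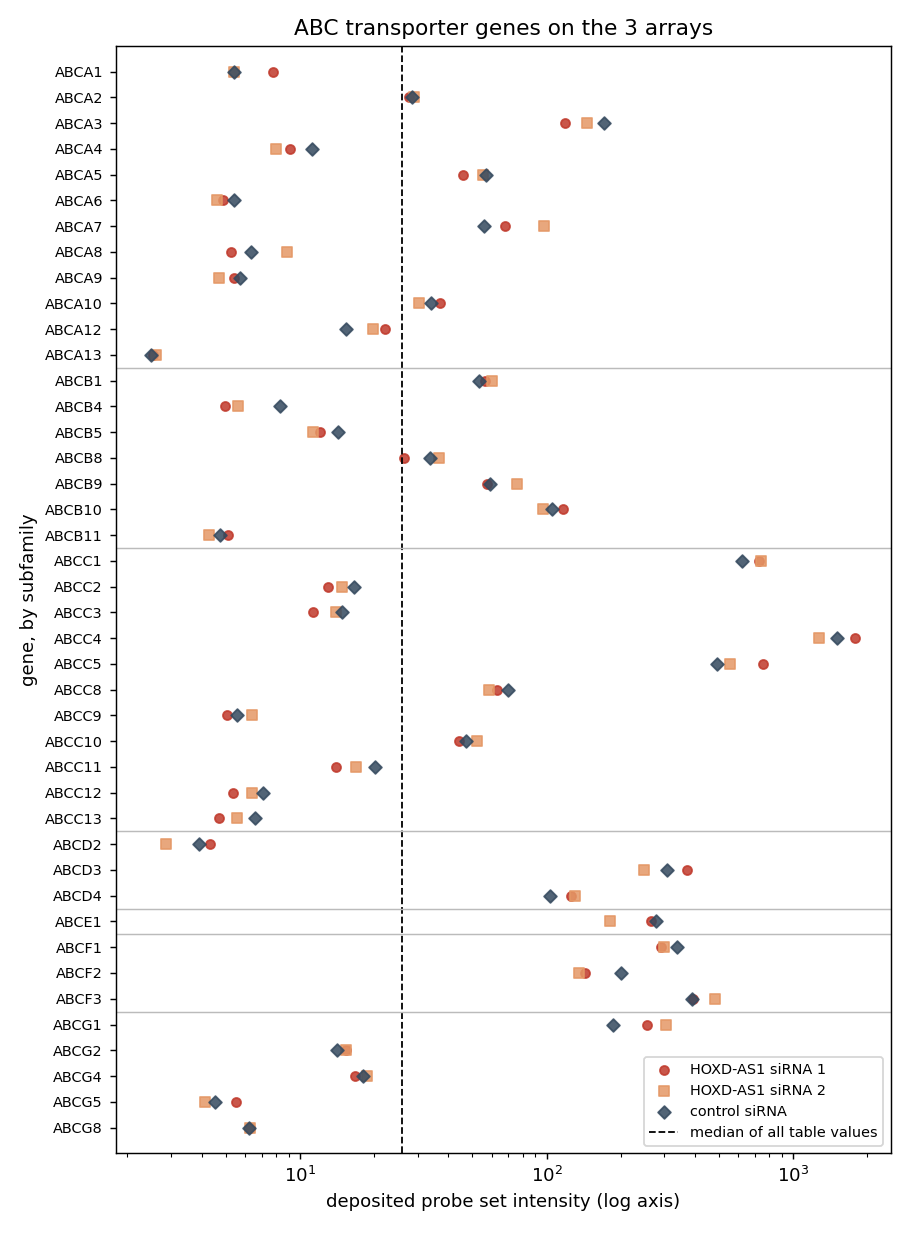
Deposited intensity of the representative probe set (log axis) for the 42 ABC transporter genes, grouped by subfamily, with 1 point for each of the 3 arrays and a dashed line at the median of all table values, 26.0. All 3 points of 21 genes lie right of the line and all 3 points of the other 21 lie left of it.

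Cell identity was checked with marker lists, which were chosen with earlier results of these data known. All 6 luminal prostate markers with a probe set of their own were above the floor, among them the kallikrein gene KLK3 (2329 with siRNA 1, 1931 with siRNA 2 and 2602 in the control). Of the 2 basal prostate markers with a probe set of their own, KRT14 was above the floor on all 3 arrays (55.9 with siRNA 1, 55.5 with siRNA 2 and 47.8 in the control) and KRT5 was below it. None of the 4 leukocyte markers was above it, and among 4 hepatocyte and adipocyte markers ADIPOQ alone was, in the siRNA 2 library; the defining hepatocyte gene ALB stayed at or below 11.6. Of 7 markers of androgen receptor-negative lines and mesenchyme 4 were above the floor, including VIM (593, 735 and 660), while CAV1 and CD44 were below it. The summed level of that list was 2667 with siRNA 1, 3413 with siRNA 2 and 3208 in the control. The summed level of the luminal list was 13866, 11477 and 13165, but its members went different ways. With siRNA 2 KLK2 and KLK3 were lower, by log2 differences of -0.68 and -0.43, while TMPRSS2, HOXB13, KRT8 and KRT18 were higher, with differences of 0.30, 0.15, 0.40 and 0.09 and a list median of 0.12. The part of these differences in those below was not tested. In bulk RNA, fewer cells of a type and less RNA per cell cannot be told apart.

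As a family the measured ABC genes showed no common direction against the control. Their median log2 difference was 0.01 with siRNA 1 and 0.03 with siRNA 2, beside 0.00 and 0.01 over all measured genes. Regardless of direction, the median size of a difference was 0.22 and 0.23, beside 0.22 and 0.20 over all measured genes. The differences ran from -0.52 to 0.62 with siRNA 1 and from -0.62 to 0.81 with siRNA 2. At 1.5-fold, a log2 difference of 0.58, 1 of 21 genes was higher with siRNA 1, against 6.90% of all measured genes, and 0 were lower, against 6.16%. With siRNA 2, 2 genes were higher, against 4.75% of all measured genes, and 1 was lower, against 4.67%. None reached 2-fold in either library, where 3.12% of all measured genes did with siRNA 1 and 1.39% with siRNA 2. With both siRNAs 7 ABC genes were higher than the control (34.3% of all measured genes) and 6 lower (32.1%), while 8 went opposite ways (30.6%). These shares are near the background. The siRNA comparisons share the control array, so values for both are given side by side only. Between siRNA 1 and siRNA 2 themselves 0 of 21 ABC genes differed by 1.5-fold on the representative probe set, against 11.4% of all measured genes. The closest was ABCD3, with a log2 difference of 0.58 just short of the threshold. Counted by probe set, 4 of 49 did, against 2649 of all 23896 measured probe sets with 1 gene. They belonged to ABCC4 (436 with siRNA 1 and 184 with siRNA 2), ABCC5, ABCD3 and ABCB9.

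**Figure D2:**
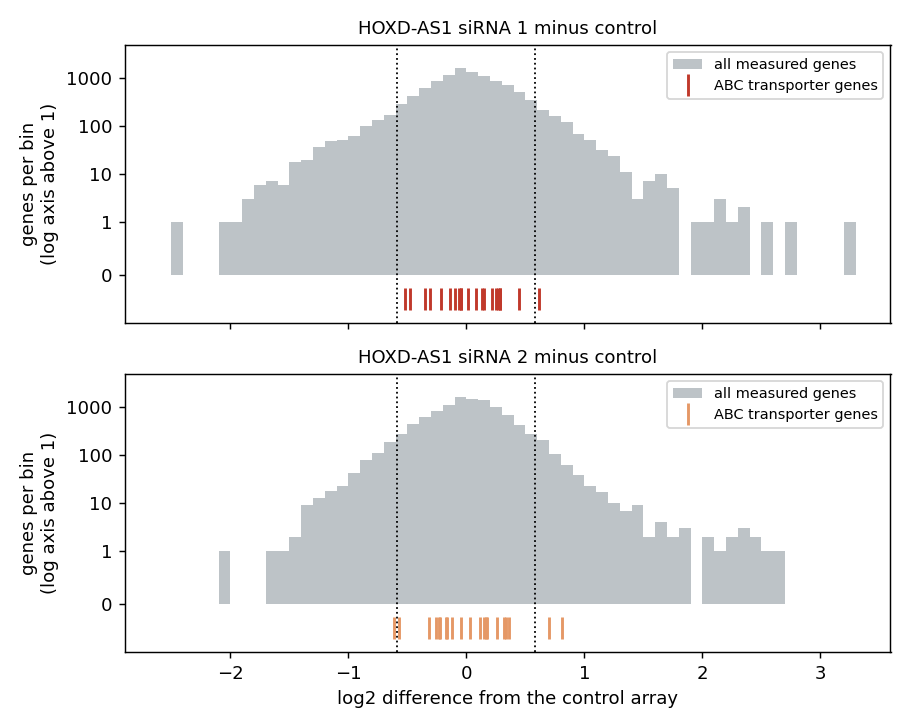
Log2 differences from the control array for siRNA 1 (top) and siRNA 2 (bottom). Grey bars count the 11286 measured genes per bin of difference (log axis above 1), coloured ticks mark the 21 measured ABC genes and dotted lines mark 1.5-fold; the ticks lie between -0.52 and 0.62 with siRNA 1 and between -0.62 and 0.81 with siRNA 2.

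Agreement between probe sets of a gene was the only internal check, and it was read within the same arrays. It does not measure the spread between arrays or cultures of a group. The floor also enters these gaps. With siRNA 2 an ABCE1 probe set differed by -0.27 with the floor and by -0.99 without it. Among ABC genes, 15 had 1 or more further measured probe sets, 28 in all. The log2 difference of a further probe set departed from that of the representative one by a median of 0.19 with siRNA 1 and 0.18 with siRNA 2, and by 0.41 and 0.53 at the 90th percentile. Over all genes with further probe sets the medians were 0.15 and 0.16 and the 90th percentiles 0.50 and 0.45. The median size of an ABC difference, 0.22 with siRNA 1 and 0.23 with siRNA 2, was close to this disagreement. With siRNA 1 all measured probe sets agreed in direction for 9 of the 15 genes, with siRNA 2 for 14, and with both for 8. A probe set raised to the floor on both arrays has a difference of 0 and was counted as not agreeing, which was so for ABCB9 and ABCD4 with siRNA 1; without the floor that ABCD4 probe set differed by 0.14, in the direction of the others. The 8 genes were ABCA3, ABCA7, ABCB1, ABCC5, ABCE1, ABCF2, ABCF3 and ABCG1.

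Subfamily ABCG was represented by ABCG1 alone, which was higher with both siRNAs. ABCG1 encodes a half-transporter that exports cholesterol to high-density lipoprotein and is a target of the liver X receptors. It read 255 with siRNA 1, 304 with siRNA 2 and 187 in the control, or 1.37-fold and 1.63-fold higher, at the 88.3rd and 97.4th percentiles of all measured genes. Both siRNA libraries lay above the control in each of its 4 measured probe sets. The 3 further sets read 249, 275 and 172, then 97.5, 98.4 and 65.0, and then 49.9, 54.9 and 46.7, and the log2 difference ran between 0.10 and 0.59 for siRNA 1 and between 0.23 and 0.68 for siRNA 2. With all probe sets of the gene averaged, including a set below the floor on every array, the siRNA 2 difference was 0.52, below 1.5-fold.

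In ABCA the members went different ways. ABCA7, whose protein moves phospholipids and which is a susceptibility gene for Alzheimer disease, read 68.0 with siRNA 1, 97.4 with siRNA 2 and 55.7 in the control. That was 1.22-fold and 1.75-fold higher, and the siRNA 2 difference of 0.81 was at the 98.4th percentile of all measured genes. Its other probe set read 32.3, 32.0 and 29.8, log2 differences of only 0.12 and 0.10, so the 1.75-fold difference rests on 1 probe set. ABCA3, which encodes the lipid carrier of lung surfactant granules, was lower with both siRNAs. It read 119 with siRNA 1, 146 with siRNA 2 and 171 in the control, log2 differences of -0.52 and -0.23. A second ABCA3 probe set read 20.9, 21.3 and 28.1 and exceeded the floor in the control alone. The lysosomal lipid transporter gene ABCA5 differed by -0.31 and -0.04. ABCA2, another gene of lipid handling in lysosomes, read 27.6, 29.1 and 28.5, next to the floor. ABCA10 read 37.1, 30.3 and 33.9 on its single measured probe set, while its 3 other probe sets stayed below the floor. The subfamily median was -0.05 with siRNA 1 and -0.04 with siRNA 2 over 5 genes.

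In ABCB no gene reached 1.5-fold. ABCB1, the gene of P-glycoprotein, read 56.4 with siRNA 1, 60.1 with siRNA 2 and 53.2 in the control, log2 differences of 0.09 and 0.18. A second ABCB1 probe set differed by 0.14 and 0.18, but the other 2 read between 4.58 and 6.70 on every array, so its probe sets did not agree on whether the gene was above the floor. ABCB9, which encodes a lysosomal peptide transporter, read 57.4, 75.9 and 59.3, differences of -0.05 and 0.36, with a second probe set at -0.13 and 0.51. The remaining measured probe set of ABCB9 exceeded the floor with siRNA 2 alone (26.6) and differed by 0.08 and 0.17 when no floor was set. The mitochondrial genes showed no common direction. ABCB8, of the inner membrane, read 26.4, 36.6 and 33.7, differences of -0.35 and 0.12. Its 2 further measured probe sets differed by -0.32 and -0.16 with siRNA 1, where both read below the floor. With siRNA 2 they differed by -0.30 and -0.01. ABCB10, which is needed for haem synthesis in red cell precursors, read 117, 96.3 and 105, differences of 0.15 and -0.12.

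**Figure D3:**
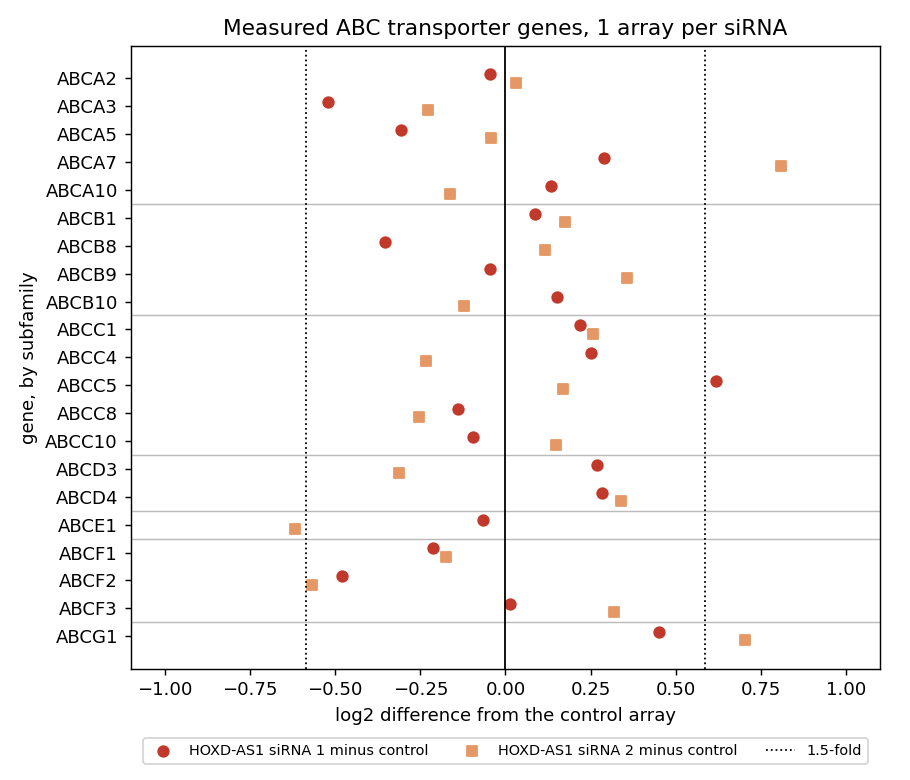
Log2 difference from the control array for the 21 measured ABC genes by subfamily, siRNA 1 as circles and siRNA 2 as squares, from 1 array each; dotted lines mark 1.5-fold. ABCC5 passes the line with siRNA 1, and ABCA7, ABCG1 and ABCE1 pass it with siRNA 2.

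ABCC, the subfamily of the multidrug resistance proteins (MRPs), held ABCC5, whose probe sets were all higher with both siRNAs. ABCC5 encodes MRP5, an exporter of cyclic nucleotides and folates. It read 753 with siRNA 1, 552 with siRNA 2 and 491 in the control, or 1.53-fold and 1.12-fold higher. A second probe set read 338, 180 and 114, which is 2.95-fold and 1.57-fold higher, and the remaining one read 50.0, 48.0 and 43.2. siRNA 1 lay above siRNA 2 and siRNA 2 above the control in each of the 3, but the size of the siRNA 1 difference ran from 0.21 to 1.56 on the log2 scale.

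ABCC4 encodes MRP4, an exporter of cyclic nucleotides and prostaglandins. Its representative probe set read 1786 with siRNA 1, 1278 with siRNA 2 and 1501 in the control, log2 differences of 0.25 and -0.23. Another probe set read 436, 184 and 413, differences of 0.08 and -1.17, so siRNA 2 was 2-fold or more lower there and siRNA 1 was near the control. The remaining 2 differed by -0.01 and -0.03 with siRNA 1 and by -0.43 and -0.19 with siRNA 2. All 4 ABCC4 probe sets were lower with siRNA 2, by widely different amounts. Of the luminal markers given above, KLK2 and KLK3 were also lower with siRNA 2 than in the control and the other 4 were higher; their part in this result was not tested. ABCC1, the gene of MRP1, which exports glutathione conjugates and leukotriene C4, read 724, 744 and 622, differences of 0.22 and 0.26, but -0.04 and 0.06 in its other measured probe set. Its direction with siRNA 1 thus depended on the measured probe set, while both were higher with siRNA 2. With all 3 ABCC1 probe sets averaged the differences were -0.03 and -0.02. That average took in a set below the floor on every array (11.9, 11.2 and 14.5). ABCC10, the MRP7 gene, read 44.2, 52.4 and 47.3. ABCC8, which encodes the sulfonylurea receptor of ATP-sensitive potassium channels, differed by -0.14 and -0.25, and its channel partner gene KCNJ11 by -0.02 and 0.28. The ABCC median was 0.22 with siRNA 1, which is the value of ABCC1, and 0.15 with siRNA 2 over 5 genes.

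**Figure D4:**
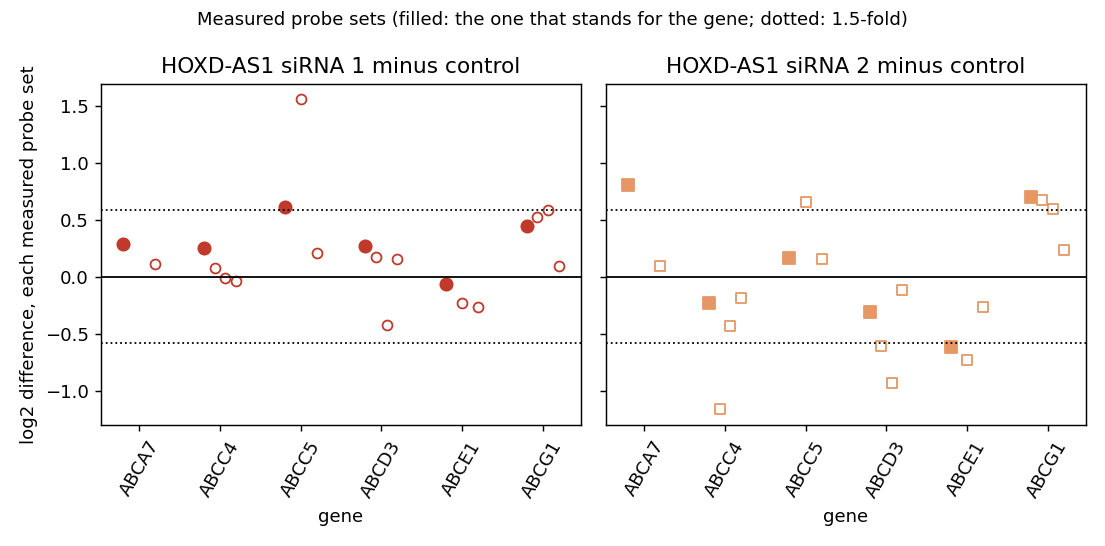
Log2 difference from the control array for every measured probe set of the 6 ABC genes with at least 1 probe set past 1.5-fold, siRNA 1 left and siRNA 2 right; filled symbols are the probe set that stands for the gene and dotted lines mark 1.5-fold. With siRNA 2 all measured probe sets of ABCC4, ABCD3 and ABCE1 lie below 0 and all those of ABCA7, ABCC5 and ABCG1 above it.

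Counted by probe set, 3 of the 49 measured ABC probe sets were 1.5-fold or more from the control with siRNA 1, all higher, against 12.2% of all measured probe sets with 1 gene. They belonged to ABCC5 and ABCG1. With siRNA 2, 5 of the 49 were higher, against 951 of all 23896 measured probe sets with 1 gene. A further 5 of the 49 were lower, against 1247 of the 23896. The share of all 23896 past 1.5-fold with siRNA 2, both directions counted, was 9.20%. The 5 higher belonged to ABCA7, ABCC5 and ABCG1, and the 5 lower to ABCC4, ABCD3 and ABCE1. Probe sets of a gene share its transcripts and are not independent observations.

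In ABCD the siRNAs differed over ABCD3, the gene of the peroxisomal membrane protein PMP70, which imports branched-chain acyl-CoA and bile acid intermediates. It read 371 with siRNA 1, 248 with siRNA 2 and 308 in the control, log2 differences of 0.27 and -0.31. Its 3 further measured probe sets were also lower with siRNA 2, by -0.61, -0.93 and -0.12, whereas with siRNA 1 they differed by 0.18, -0.42 and 0.16. The lower level with siRNA 2 was thus common to all probe sets, and the siRNA 1 direction was not. ABCD4, whose protein takes part in the release of cobalamin from lysosomes, read 125, 130 and 103, differences of 0.28 and 0.34. With the floor, its further probe sets differed by at most 0.07 and 0.24.

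The genes of translation, ABCE1 and ABCF1 to ABCF3, included both lower and higher members. ABCE1, whose protein splits ribosomes after termination, read 266 with siRNA 1, 181 with siRNA 2 and 278 in the control. It was close to the control with siRNA 1 (-0.07) and lower with siRNA 2 (-0.62, the 4.0th percentile of all measured genes). A second probe set read 140, 98.8 and 164, differences of -0.23 and -0.73, and the remaining measured one read 25.7, 15.7 and 31.2, where both siRNA values were below the floor. ABCF2, which encodes a cytosolic ATPase of the family, was lower with both siRNAs and just short of 1.5-fold. It read 144 with siRNA 1, 135 with siRNA 2 and 200 in the control, or 1.39-fold and 1.48-fold lower. All 4 of its probe sets were lower, with differences between -0.49 and -0.21 for siRNA 1 and between -0.58 and -0.32 for siRNA 2. ABCF1, whose protein binds the initiation factor eIF2, read 292, 300 and 339, differences of -0.21 and -0.17, but its other probe set differed by 0.00 and -0.01. ABCF3 read 391, 483 and 387, differences of 0.01 and 0.32, and its other measured probe set gave 0.04 and 0.31. The ABCF genes thus did not share a direction with siRNA 2.

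The family genes whose symbols fall outside the rule were read beside these. TAP2, which encodes a subunit of the peptide transporter of antigen presentation, read 110 with siRNA 1, 133 with siRNA 2 and 196 in the control, log2 differences of -0.83 and -0.57. Its 3 other probe sets were lower as well, by -0.94 to -0.77 and -0.67 to -0.53. Its partner subunit gene TAP1 differed by 0.24 and 0.15, but its other measured probe set by 0.10 and -0.18, so the siRNA 2 direction was not shared. CFTR, the chloride channel of the family, was below the floor on all arrays.

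Genes that regulate or work with ABC transporters were counted in lists against the backgrounds given above, each gene by its representative probe set. These lists were chosen with earlier results of these data known, so their counts are a description. Of 14 measured transcriptional regulators of ABC genes, 3 were 1.5-fold higher and 1 lower with siRNA 1, and 0 were higher and 1 lower with siRNA 2, with medians of 0.11 and 0.09. Of 13 cholesterol efflux and uptake partners, 3 were higher and 0 lower with siRNA 1 and 1 was higher and 0 lower with siRNA 2, with medians of 0.12 and 0.35. On representative probe sets APOD, a lipid-binding lipocalin gene, was the 1 gene of all these lists past 1.5-fold the same way with both siRNAs. APOD read 290 with siRNA 1, 231 with siRNA 2 and 144 in the control, log2 differences of 1.02 and 0.69, and its other measured probe set gave 0.94 and 0.68. None of 11 genes of glutathione synthesis and conjugation, which supply substrates of ABCC proteins, was 1.5-fold from the control, and 5 were lower with both siRNAs (32.1% of all measured genes) and 0 higher with both (34.3%). Some further probe sets did pass 1.5-fold, those of GSTM3 with siRNA 1 (0.81 and 0.61) and of GSR with siRNA 2 (-0.60). Of 12 peroxisomal genes 1 was lower with siRNA 1 and 2 were higher with siRNA 2, with medians of -0.13 and 0.15. A further PEX14 set was past 1.5-fold lower with siRNA 1 (-0.64). In the regulator list a further HIF1A set was past it higher with siRNA 1 (0.60), and one of SREBF2 lower with siRNA 2 (-0.65). Among the cholesterol partners a further OSBPL1A set was past it lower with siRNA 2 (-0.60). None of 15 genes of mitochondrial iron-sulfur and haem synthesis was 1.5-fold from the control on its representative probe set. With siRNA 2 further probe sets of UROD, SLC25A37 and LYRM4 were past 1.5-fold lower, by up to -0.65, -0.74 and -0.68. With siRNA 1 a further set of FECH was past it higher (0.59). Of 14 genes of ribosome recycling and translation start, 1 was 1.5-fold higher in the siRNA 1 library and 1 lower in the siRNA 2 library, with medians of 0.01 and -0.02. GSPT1 of that list differed by -0.39 and 0.08 on its representative probe set. Further GSPT1 sets were past 1.5-fold lower with both siRNAs, by -0.86 and -0.96 and by -0.83 and -0.97. Its other sets differed by -0.43 and 0.04 and by -0.55 and -0.41. Of 9 peptide loading genes 1 was higher with siRNA 2. The 3 measured uptake carriers of organic anions and drugs were all within 1.5-fold.

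What the measured genes shared beyond the rule was read from RefSeq promoters (GRCh38.p14). Windows were found for 33 of the 42 genes, and the 250 bases before each start were used. The windows of 18 measured genes had a median G and C content of 68.6% (27.4 to 80.4) and a median of 25.5 CG pairs, against 46.4% (39.2 to 70.8) and 4.33 CG pairs for 15 genes below the floor. Over all 27305 genes with a window the medians were 58.0% and 11. The ranges overlapped. ABCA10 and ABCB1 were measured with CG-poor windows, and ABCG4, ABCG2 and ABCA1 were below the floor with CG-rich ones. The letters GGGCGG, read on both strands, were present in windows of 14 of the 18 measured genes and 6 of the 15 others, and in at least 1 window of 46.2% of all genes. CCAAT was present in 6 and 4 (37.0% of all genes), TATAAA in 3 and 3 (13.0%) and CACGTG in 3 and 4 (7.73%). These motifs do not overlap one another in the windows shown. This comparison is a description of detection, not of the siRNA differences, and carries no test.

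**Figure D5:**
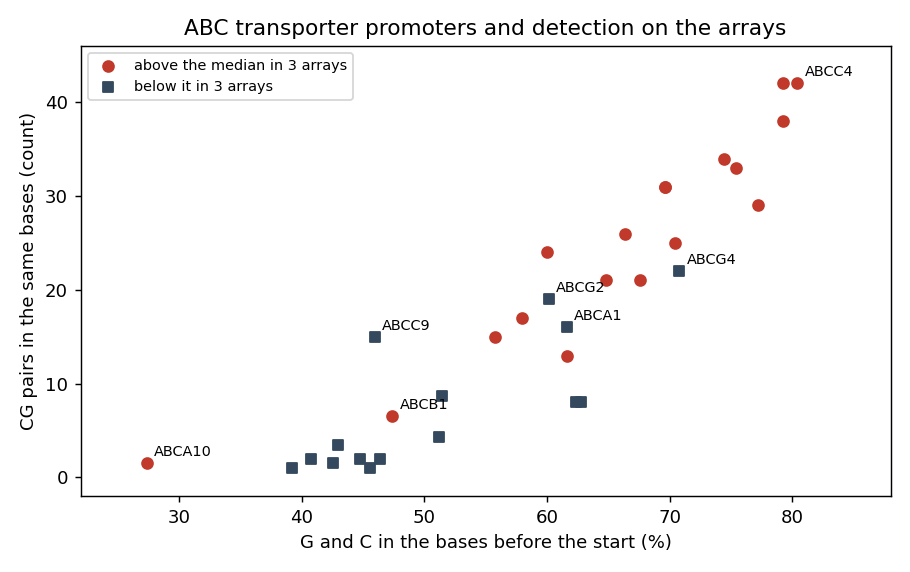
G and C content in percent (x axis) and count of CG pairs (y axis) in the 250 bases before the RefSeq start for 33 ABC genes, averaged over windows where a gene has several. Circles are the 18 genes above the median of all table values on the 3 arrays and squares the 15 below it; most circles lie at upper right, with ABCA10 and ABCB1 as exceptions, and ABCG4, ABCG2 and ABCA1 lie among them as squares.

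No window was found for ABCG1. The CG-rich windows of ABCG4, ABCG2 and ABCA1, genes below the floor, are not shown. Upstream windows are shown for ABCC5, ABCA7, ABCE1 and ABCF2, which carried larger differences. To make the contrast in CG pairs visible, windows of ABCB11 and ABCG8, both below the floor and CG-poor, were picked beside them. Each is written 5′ to 3′ on the gene's strand and ends at the base before the start. Capitals mark these motifs in either orientation, and also the palindrome TGACGTCA, which was added after the ABCE1 window had been read and which was present in 1.65% of the 35116 windows of all genes. The windows are chr3:184017885-184018134 (minus strand) for ABCC5, chr19:1039857-1040106 (plus) for ABCA7, chr4:145098061-145098310 (plus) for ABCE1, chr7:151227206-151227455 (minus) for ABCF2, chr2:169031325-169031574 (minus) for ABCB11 and chr2:43838721-43838970 (plus) for ABCG8.
ABCC5: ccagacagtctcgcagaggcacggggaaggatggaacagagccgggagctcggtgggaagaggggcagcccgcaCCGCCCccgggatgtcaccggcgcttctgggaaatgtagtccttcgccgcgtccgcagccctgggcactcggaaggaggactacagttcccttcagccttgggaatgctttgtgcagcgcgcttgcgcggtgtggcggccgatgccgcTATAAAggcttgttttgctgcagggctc
ABCA7: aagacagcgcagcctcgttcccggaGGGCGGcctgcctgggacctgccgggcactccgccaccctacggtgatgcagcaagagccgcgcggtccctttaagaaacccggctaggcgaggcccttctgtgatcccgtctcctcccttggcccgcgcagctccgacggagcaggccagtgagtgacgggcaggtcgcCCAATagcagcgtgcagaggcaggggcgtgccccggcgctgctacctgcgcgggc
ABCE1: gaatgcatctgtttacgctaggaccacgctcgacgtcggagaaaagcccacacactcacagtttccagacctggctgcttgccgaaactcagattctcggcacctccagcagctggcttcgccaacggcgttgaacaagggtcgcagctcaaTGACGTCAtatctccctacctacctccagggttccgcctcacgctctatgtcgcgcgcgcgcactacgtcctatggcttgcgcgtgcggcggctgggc
ABCF2: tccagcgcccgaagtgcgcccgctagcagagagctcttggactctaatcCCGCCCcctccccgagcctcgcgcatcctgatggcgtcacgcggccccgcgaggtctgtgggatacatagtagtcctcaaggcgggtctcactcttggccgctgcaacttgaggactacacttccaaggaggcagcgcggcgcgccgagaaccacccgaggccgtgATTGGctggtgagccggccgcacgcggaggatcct
ABCB11: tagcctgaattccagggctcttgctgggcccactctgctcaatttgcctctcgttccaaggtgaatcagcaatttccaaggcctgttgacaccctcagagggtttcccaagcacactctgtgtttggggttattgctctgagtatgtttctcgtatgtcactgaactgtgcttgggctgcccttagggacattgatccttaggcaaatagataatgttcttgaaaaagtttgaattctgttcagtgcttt
ABCG8: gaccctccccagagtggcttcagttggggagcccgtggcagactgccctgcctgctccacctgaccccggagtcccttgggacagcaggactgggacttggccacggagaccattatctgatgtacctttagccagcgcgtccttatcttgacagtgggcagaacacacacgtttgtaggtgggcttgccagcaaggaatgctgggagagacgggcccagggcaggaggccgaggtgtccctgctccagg

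The windows of ABCC5, ABCA7, ABCE1 and ABCF2 held 21, 25, 24 and 26 CG pairs, and those of ABCB11 and ABCG8 held 2 and 8. TATAAA was found in the ABCC5 window alone of these, CCAAT in those of ABCA7 and ABCF2, and GGGCGG in those of ABCC5, ABCA7 and ABCF2. The ABCE1 and ABCF2 windows had none of these motifs in common.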

How the data were processed

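Transcript levels were measured on 3 Affymetrix arrays, 1 per group. The authors deposited a table of linear probe set intensities with a column for each array. The submitters' processing notes name GCOS 1.4; how background, summarisation and normalization were handled is not given in the sources used here. Sorted on the log2 scale, the 3 deposited columns differed by 0.10 at most, and they were used without further scaling, so a general shift removed by an earlier normalization could not be seen. Symbols came from the platform annotation, and RefSeq held all 42 member genes under the same symbol through their Entrez identifiers. Probe sets with several symbols (1831) or none (2569) named no gene. Log2 differences, counts at 1.5-fold and 2-fold and medians were computed with Python 3.11.15, numpy 2.4.6 and pandas 2.3.3, and the code was checked on altered copies of the table. With 1 array per group no p-value was computed. Every measured member is described, and so are the family genes with other symbols. From the partner lists, genes 1.5-fold from the control in the same direction with both siRNAs are described. Some further probe sets past that fold are given as well. The members and lists were chosen with earlier results of these data known. Alternatives were other floors, other probe set rules and 2 normalizations.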

Additional observations from a re-analysis of the deposited data

How the results depend on the processing

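No paired analysis was possible because each group held 1 array. With the floor at the 25th percentile, no floor, quantile normalization, median centring or the probe set with the highest maximum, all counts stayed within 1.5 times, and medians and gene differences within 0.1 on the log2 scale. With the floor at the 75th percentile 11 ABC genes were measured and the siRNA 2 median was -0.175. There 1 gene was 1.5-fold higher with siRNA 2, against 4.32% of all measured genes. Of 22 gene differences 2 moved by 0.1 or more, those of ABCD4, to 0.06 with siRNA 1 and 0.11 with siRNA 2. With only plain probe sets 7 genes were measured, and the medians were -0.140 with siRNA 1 and -0.175 with siRNA 2. In that setting 0 genes were higher with siRNA 1, against 8.42% of all measured genes, and 0 with siRNA 2, against 4.81%. Fewer genes entered in this setting and with the floor at the 75th percentile. With all probe sets of a gene averaged, 15 genes were measured and the siRNA 2 median was -0.093. By that rule 0 genes were higher with siRNA 2, against 2.75% of all measured genes, and 2 were lower, against 3.57%. Of 30 gene differences 16 moved by 0.1 or more. Among these the sign turned for ABCC1 (-0.03 with siRNA 1 and -0.02 with siRNA 2), ABCD3 with siRNA 1 (-0.14) and ABCB8 with siRNA 2 (-0.12). These averages took in probe sets below the floor on every array, which each of these genes has. That of ABCD3 read 9.98 with siRNA 1, 8.18 with siRNA 2 and 18.7 in the control. At 2-fold 0 genes were called in either direction with either siRNA. Further alternatives were added after the data were seen. Counting a gene when any measured probe set passed 1.5-fold gave 2 higher and 0 lower with siRNA 1. With siRNA 2 it gave 3 higher and 3 lower. The share of all genes under that rule was not computed, so these counts have no background. Requiring all measured probe sets to share a sign changed no count. No 1.5-fold difference changed sign under the alternatives in which its gene was still measured; ABCC5, ABCA7 and ABCG1 gave no value with only plain probe sets, nor ABCA7 with the floor at the 75th percentile. ABCC5 with siRNA 1 ran from 0.61 to 0.70, ABCA7 with siRNA 2 from 0.45 to 0.83, ABCG1 with siRNA 2 from 0.52 to 0.72 and ABCE1 with siRNA 2 from -0.70 to -0.60. The lowest values of ABCA7 and ABCG1, below 1.5-fold, came from averaging probe sets. Raising values to the floor shrinks the differences of probe sets near it by construction; signal over background was not measured here.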

Other observations

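Another ABC gene, ABCB6, which encodes a porphyrin transporter, was outside the rule because its 5 probe sets are annotated to ABCB6 and ATG9A together, so their values cannot be given to either gene. All 5 were above the floor on at least 1 array. One read 282 with siRNA 1, 491 with siRNA 2 and 467 in the control, log2 differences of -0.73 and 0.07, and another read 148, 195 and 237, differences of -0.68 and -0.28. The other three differed by -0.30, -0.42 and 0.06 with siRNA 1 and by 0.15, 0.05 and 0.21 with siRNA 2.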
